A study of Homo sapiens with 12 samples.

Results

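The genes described here are the BCL2 family, the caspases and the death receptors, together with their adaptors, their inhibitors and the factors that act downstream of the mitochondrion. The 38 members were taken from a written list and matched by Ensembl identifier to symbols in GENCODE v44, out of 63677 identifiers in the count files. Of these, 27 favour cell death (pro-death) and 11 oppose it (anti-death). A filter on low counts left 17123 genes to test, among them 37 of the members. The member that did not pass was HRK, a BH3-only protein, with 0.105 to 0.572 CPM (the count scaled to the size of its library) in Con and 0.158 to 0.452 CPM in the other groups.

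Apoptosis runs along a mitochondrial and a receptor route. In the first, BH3-only proteins relieve the block that BCL2, BCL2L1 (BCL-xL) and MCL1 put on the pore formers BAX and BAK1, cytochrome c (CYCS) leaves the mitochondrion, and APAF1 assembles the apoptosome that activates CASP9. In the second, ligands of the TNF family bind receptors such as FAS, TNFRSF10A (DR4) and TNFRSF10B (DR5), FADD recruits CASP8 or CASP10, and CFLAR (FLIP) competes for the same platform. Pancreatic cancer cells are known for a high threshold to both routes, and inhibitor of apoptosis proteins act on the caspases.

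MiaPaca2 is an established human cell line of pancreatic ductal adenocarcinoma (PDAC), and the study asked whether epigenetic priming changes its response to a vitamin D analogue. RNA was sequenced in 12 libraries, 3 in each of 4 groups, after 24 h. The Con group received the vehicle DMSO, and the CPT group received calcipotriol, the vitamin D receptor agonist, at 1 µM. The GTA+5-Aza group received glyceryl triacetate, a source of acetate for histone acetylation, at 2 mM with 5-Aza-2′-deoxycytidine, an inhibitor of DNA methyltransferases, at 1 µM. The CPT+GTA+5-Aza group received all 3 agents at those doses, and the labels give the genotype as WT in every group. Cells given GTA and 5-Aza are called primed here and the others unprimed. All values come from 1 cell line, and fewer surviving cells of a kind cannot be told apart from less RNA per cell in such bulk libraries.

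Total counts ran from 16162490 to 21224665 per library. KRT8, KRT18 and VIM were abundant in every library, EPCAM did not exceed 1 count, and the endothelial and acinar markers were at 0 throughout. The fibroblast list, nearly all of it COL3A1 with LUM at 0 and DCN at most 2 counts, summed to 89.6 to 100.5 CPM in Con and 84.9 to 92.8 CPM in CPT, and to 116 to 126 CPM in GTA+5-Aza and 101 to 108 CPM in CPT+GTA+5-Aza. The epithelial and PDAC list summed to 8453 to 8684 CPM in the unprimed and 7781 to 8297 CPM in the primed libraries. Most of that sum was VIM, at 5308 to 6593 CPM, with KRT19 at 28.4 to 41.4 CPM and KRT7 at 0.21 to 2.77 CPM. Both lists were thus apart with priming, and their part in the results was not tested. The immune list summed to 0.0612 to 1.64 CPM. Libraries also differed in their trend with GC content, and where the call of a member in a priming comparison changed once that trend was removed, the value without the trend is given beside it. The trend was itself mostly higher in primed libraries, so its removal may also take out part of a response to priming.

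Because 5-Aza inhibits DNA methyltransferases, the CpG content of the members' promoters was read from RefSeq sequences (GRCh38.p14). There, 28 of the 38 members had an entry. Methylation itself was not measured in these libraries. Windows covered the 250 bases before a start site. Over 35116 such windows the median was 11 CpG, with quartiles of 3 and 23. The sequences shown are those of CASP6 and PMAIP1, with the largest fold changes among members called higher in GTA+5-Aza against Con, and of BBC3, with the largest in CPT+GTA+5-Aza against CPT, 5′ to 3′ with each CpG in capitals. CASP6 lies on the minus strand (chr4:109703446-109703695), PMAIP1 on the plus strand (chr18:59899746-59899995) and BBC3 on the minus strand (chr19:47232668-47232917).
CASP6: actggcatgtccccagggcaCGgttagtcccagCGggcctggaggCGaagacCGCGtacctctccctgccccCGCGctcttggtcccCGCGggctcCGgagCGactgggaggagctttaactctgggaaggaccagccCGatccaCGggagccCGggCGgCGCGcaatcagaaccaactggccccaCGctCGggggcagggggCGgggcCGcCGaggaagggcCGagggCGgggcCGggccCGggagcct
PMAIP1: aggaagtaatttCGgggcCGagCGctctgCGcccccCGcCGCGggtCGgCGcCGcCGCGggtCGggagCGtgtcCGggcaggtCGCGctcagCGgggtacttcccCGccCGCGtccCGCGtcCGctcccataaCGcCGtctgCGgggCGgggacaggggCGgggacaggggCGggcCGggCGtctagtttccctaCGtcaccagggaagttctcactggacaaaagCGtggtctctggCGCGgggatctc
BBC3: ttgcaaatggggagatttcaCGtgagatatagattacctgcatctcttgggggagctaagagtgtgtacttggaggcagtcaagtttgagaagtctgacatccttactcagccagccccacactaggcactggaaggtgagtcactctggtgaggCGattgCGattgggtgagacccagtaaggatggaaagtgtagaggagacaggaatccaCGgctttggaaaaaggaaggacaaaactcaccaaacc
The CASP6 window held 26 CpG, a number that 19.6% of all windows reached, and the PMAIP1 window held 36, which 4.85% reached. The BBC3 window held 4, which 70.7% reached, so the members with the largest fold changes had both CpG-dense and CpG-poor windows. Among the other members called higher in GTA+5-Aza, those with a single listed start were FADD with 32, APAF1 with 38, BOK with 17 and BAK1 with 5. BAD had 17 and 20 before its 2 starts, and CFLAR 0 to 22 before its 4. TNFRSF10A, TNFRSF10B and MCL1, also called higher there, had no entry, nor had BIK, called with CPT present. CpG-dense windows were also found before members that were not called there, with 34 for BCL2L11, 31 for CYCS and 25 for BAX. Any link between CpG content and the calls was not tested.

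Levels were compared between members as CPM per kilobase of the canonical transcript. By this measure, which depends on the length used, the pore former BAX stood highest, with a mean of 100.8 CPM per kilobase in Con. Its canonical transcript has 795 bases, and its exons together 2587. BIRC5 (survivin), an inhibitor of apoptosis protein that also serves in mitosis, followed at 81.1 and the TNF receptor TNFRSF1A at 62.0. The guardian MCL1 stood at 49.5 and BCL2L1 at 36.9, while BCL2 itself stood at 0.42 ± 0.073 (SD, n = 3). The FAS receptor was near the bottom at 0.241, as were the BH3-only proteins BMF at 0.33, BBC3 (PUMA) at 0.688 and BIK at 1.21, and the decoy receptor TNFRSF10C at 0.274. FAS had 5 to 42 counts per library and TNFRSF10C 2 to 26, so changes in these members were measured with little precision.

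**Figure D1:**
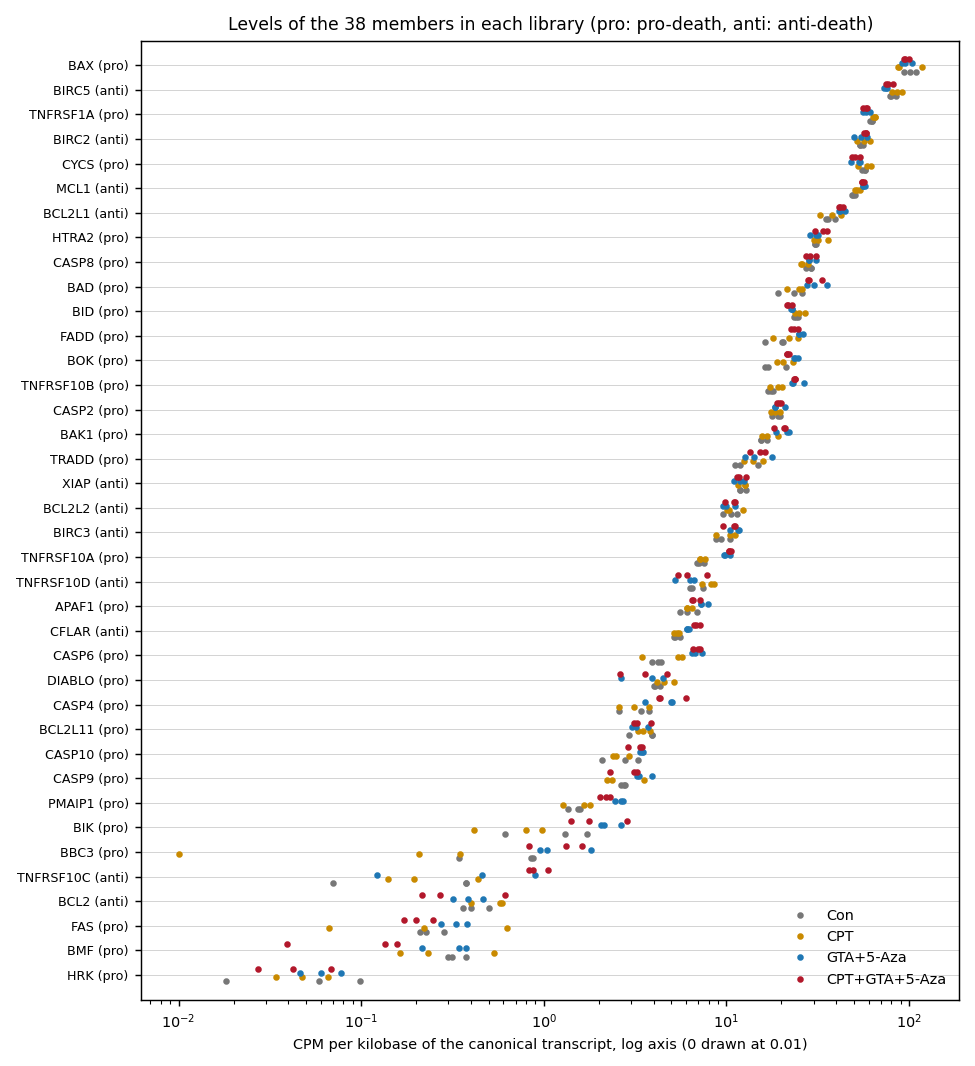
Level of each of the 38 members in each of the 12 libraries, as CPM per kilobase of the canonical transcript on a log axis, coloured by group. Members spread over more than 3 orders of magnitude, from HRK to BAX at 100.8 in Con, and the 4 groups lie close together for most of them.

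Priming raised 11 members and lowered 0 in the absence of CPT. In GTA+5-Aza against Con, the members called higher at an adjusted p under 0.05 (quasi-likelihood test of edgeR, Benjamini-Hochberg adjusted over 17123 genes) were 9 of 26 pro-death and 2 of 11 anti-death members, where 9.95% of all genes tested were called higher and 7.53% lower. DESeq2 also called 0 members lower. In 17 members every GTA+5-Aza library was above every Con library, beside 18.1% of all genes tested. In 3 members, BID, BIRC5 and CYCS, every one was below, beside 16% of all genes. At an unadjusted P under 0.05, 17 of 37 members passed, beside 29.4% of all genes, and CYCS was the 1 among them with a value below 0. By the study's own thresholds, a fold change above 1.5 with an unadjusted P under 0.05, the 3 members higher were CASP6, PMAIP1 and BIK and 0 were lower, against 6.82% and 1.62% of all genes. Of the 11 members called by adjusted p, 9 had a fold change below 1.5. Without GTA+5-Aza replicate 3, 6 members were called, and BAK1, BAD, PMAIP1, CFLAR and APAF1 lost their calls. Without Con replicate 1, BAD, FADD, CFLAR and APAF1 lost theirs, without Con replicate 2 PMAIP1, CFLAR and APAF1, without Con replicate 3 or GTA+5-Aza replicate 2 MCL1 and CFLAR, and without GTA+5-Aza replicate 1 CFLAR and APAF1.

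With CPT present, priming raised 6 members and lowered 1. In CPT+GTA+5-Aza against CPT, which shares no library with the first comparison, 5 pro-death members and CFLAR were called higher and CYCS lower by the same test, where 9.57% of all genes were called higher and 7.39% lower. By the study's thresholds BBC3, BIK, CASP4 and TNFRSF10C were higher and BMF was lower, against 6.93% and 1.74% of all genes. The 2 groups lay apart with the primed one higher in 11 members, beside 16.4% of all genes. It was lower in 3 members, BID, BMF and TNFRSF1A, beside 14.4% of all genes. TNFRSF10A, TNFRSF10B, CASP6 and CFLAR were called higher in both comparisons, which is 36.4% of the members called in the first and 57.1% of those called in the second. Over all genes 6.73% were called higher in both, and the genes called the same way in both were 66.8% and 68.9% of those called in each. Of these 4, TNFRSF10A and TNFRSF10B kept both calls without any 1 of the 12 libraries. Without CPT+GTA+5-Aza replicate 2, 4 members were called with CPT present, and BIK, CASP6 and CYCS lost their calls.

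**Figure D2:**
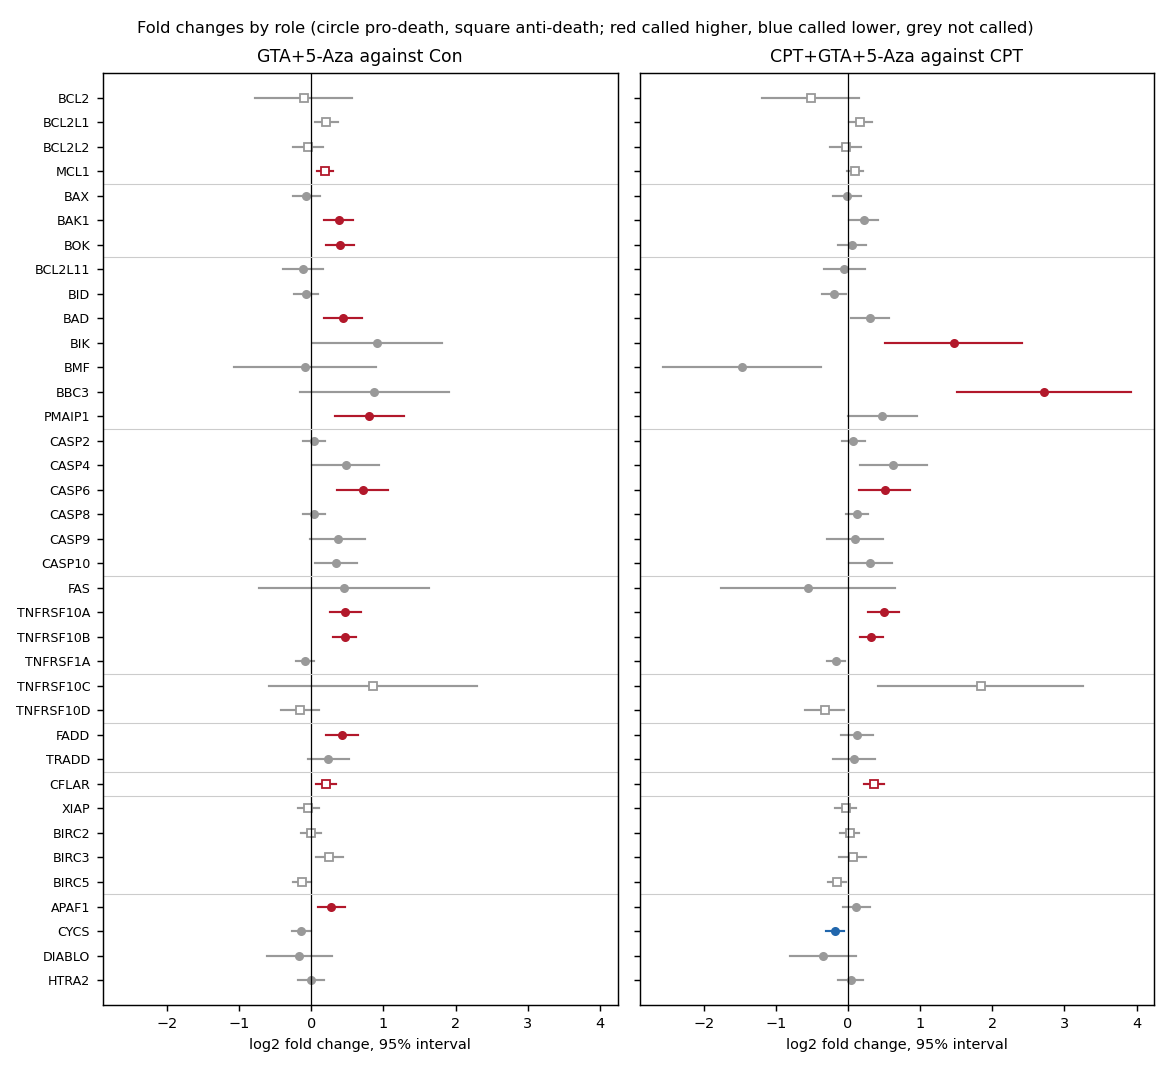
Log2 fold change of each of the 37 tested members with its 95% interval, ordered by role, in GTA+5-Aza against Con (left) and CPT+GTA+5-Aza against CPT (right). Red marks the 11 and 6 members called higher, blue the 1 called lower, circles the pro-death and squares the anti-death members.

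Both receptors that signal for TRAIL rose with priming. TNFRSF10A stood at 18.6, 19.1 and 20.3 CPM in Con and 19.4, 20.6 and 19.4 CPM in CPT, and at 28.1, 26.1 and 26.3 CPM in GTA+5-Aza and 27.8, 28.3 and 27.7 CPM in CPT+GTA+5-Aza. Every primed library was above every unprimed one. The log2 fold change was 0.47 ± 0.10 (SE) without CPT and 0.50 ± 0.10 (SE) with it (edgeR adjusted p = 0.00199 and 0.00135). TNFRSF10B stood at 70.1, 71.9 and 67.8 CPM in Con, 80.8, 76.4 and 68.8 CPM in CPT, 92, 91 and 106 CPM in GTA+5-Aza and 94.9, 94.7 and 93.4 CPM in CPT+GTA+5-Aza. The 6 primed libraries again lay above the 6 unprimed ones, with log2 fold changes of 0.46 ± 0.077 (SE) and 0.32 ± 0.077 (SE) (edgeR adjusted p = 0.000109 and 0.00395).

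The other receptors did not pass the test in either comparison. TNFRSF1A, the receptor for TNF, had log2 fold changes of -0.089 and -0.16. With the GC trend removed these were -0.21 and -0.28, and both were called lower (edgeR adjusted p = 0.0122 and 0.000896). FAS had 0.45 and -0.55, with 95% intervals of -0.73 to 1.63 and -1.77 to 0.66. Of the decoys, which bind TRAIL without passing on a death signal, TNFRSF10C had 0.85 and 1.84 and TNFRSF10D -0.16 and -0.32. The unadjusted P was 0.0134 for TNFRSF10C and 0.019 for TNFRSF10D with CPT present, and both missed the adjusted threshold.

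FADD, the adaptor that links death receptors to CASP8, rose without CPT. Its levels were 27.9, 34.4 and 35 CPM in Con, 45, 42.6 and 42.8 CPM in GTA+5-Aza, 37.5, 42.1 and 30.8 CPM in CPT and 39.9, 41.8 and 38.5 CPM in CPT+GTA+5-Aza. The groups were apart without CPT and overlapped with it. The log2 fold changes were 0.42 ± 0.11 (SE) and 0.12 ± 0.11 (SE) (edgeR adjusted p = 0.00724 and 0.504), and the difference between them had an unadjusted P of 0.0618. An antisense lncRNA covers 59.2% of the exon bases of FADD, and reads of the pair cannot be told apart where strand was not used. TRADD, the adaptor of TNFRSF1A, had log2 fold changes of 0.24 and 0.084 and was not called.

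CFLAR, which blocks CASP8 at the receptor, was the anti-death member with the smallest p with CPT present. It stood at 75.1, 76.8 and 81.1 CPM in Con and 80.7, 78.1 and 75.8 CPM in CPT, against 91.3, 88.3 and 88.3 CPM in GTA+5-Aza and 98.9, 97.3 and 105 CPM in CPT+GTA+5-Aza. The 4 groups thus fell into unprimed, primed and primed with CPT, with no overlap between those 3 levels. The step with CPT in primed cells was not called (log2 fold change 0.17, edgeR unadjusted P = 0.0194). There, 4.42% of all genes lay apart in the same direction. The interaction for CFLAR had an edgeR unadjusted P of 0.109. The log2 fold changes with priming were 0.20 ± 0.069 (SE) and 0.36 ± 0.069 (SE) (edgeR adjusted p = 0.0417 and 0.000499). The first was lost in 10 of the 12 fits that left out 1 library, with adjusted p from 0.0309 to 0.17, and the second was kept in all 12.

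Among the caspases, CASP6, an executioner that cleaves lamins, rose in both comparisons. Its levels were 6.36, 6.86 and 7.2 CPM in Con, 5.61, 9.35 and 8.84 CPM in CPT, 10.6, 12 and 11 CPM in GTA+5-Aza and 10.7, 11.5 and 11.8 CPM in CPT+GTA+5-Aza. Primed libraries were above unprimed ones throughout, though CPT replicate 1 was well below the other CPT libraries. The fold changes were 1.64 and 1.42 (edgeR adjusted p = 0.00447 and 0.0417). Without CPT replicate 1 the log2 fold change with CPT present was 0.31 in place of 0.51, with an adjusted p of 0.263. The fits that left out 1 library gave 0.0126 to 0.263 for this result, and 6 of the 12 lost the call.

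The remaining caspases all had fold changes above 1 but did not pass. CASP4, an inflammatory caspase, had log2 fold changes of 0.48 and 0.63 (unadjusted P = 0.045 and 0.0105), of which the second was called with the GC trend removed (0.65, edgeR adjusted p = 0.0414), and the initiator CASP10 had 0.34 and 0.31. The initiator of the apoptosome, CASP9, had 0.37 and 0.099. CASP2 and CASP8 lay between 0.037 and 0.13 in both comparisons, with standard errors of 0.075 to 0.076.

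Of the pore formers, BAK1 and BOK rose without CPT, and BAX had log2 fold changes of -0.067 and -0.020. BAK1 stood at 33.7, 33.5 and 36.3 CPM in Con, 46.5, 40.5 and 47.8 CPM in GTA+5-Aza, 36.1, 41.6 and 34.1 CPM in CPT and 45.5, 44.7 and 39.6 CPM in CPT+GTA+5-Aza. BOK, a relative of BAX and BAK1, stood at 42.4, 55.6 and 44.6 CPM in Con, 61.9, 61.3 and 65 CPM in GTA+5-Aza, 53.3, 60.4 and 49.8 CPM in CPT and 56.5, 57.8 and 56.3 CPM in CPT+GTA+5-Aza. Both were apart between GTA+5-Aza and Con and overlapped between the 2 groups with CPT. The log2 fold changes without CPT were 0.38 ± 0.099 (SE) for BAK1 and 0.40 ± 0.094 (SE) for BOK (edgeR adjusted p = 0.008 and 0.00375). With CPT they were 0.21 and 0.060 (edgeR adjusted p = 0.146 and 0.736). With the GC trend removed, the values without CPT were 0.24 for BAK1, still called, and 0.18 for BOK, no longer called (edgeR adjusted p = 0.0432 and 0.0761), while BAX was at -0.23 and called lower (edgeR adjusted p = 0.0138).

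The BH3-only proteins moved apart from one another. PMAIP1 (NOXA), which targets MCL1, stood at 3, 2.57 and 2.92 CPM in Con, 4.65, 5.01 and 5.14 CPM in GTA+5-Aza, 3.13, 2.41 and 3.38 CPM in CPT and 4.38, 3.86 and 4.16 CPM in CPT+GTA+5-Aza. Primed and unprimed libraries did not overlap in either comparison. The fold changes were 1.74 and 1.39, and only the first was called (edgeR adjusted p = 0.017 and 0.178). BAD, which binds BCL2 and BCL2L1, stood at 17.9, 24.2 and 21.7 CPM in Con, 25.6, 28 and 32.9 CPM in GTA+5-Aza, 23.3, 24.1 and 19.9 CPM in CPT and 26, 31 and 26.3 CPM in CPT+GTA+5-Aza. It too was apart in both comparisons, with log2 fold changes of 0.44 and 0.31 (edgeR adjusted p = 0.0163 and 0.0989), and 23.65% of its exon bases overlap GPR137 on the other strand. With the GC trend removed the first was 0.22 and not called (edgeR adjusted p = 0.157).

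BBC3 and BIK, both scarce, were called with CPT present. BBC3 had 12, 33 and 33 counts in Con, 0, 13 and 7 in CPT, 63, 35 and 34 in GTA+5-Aza and 29, 43 and 49 in CPT+GTA+5-Aza. The CPT group had the lowest mean, but its highest library (0.639 CPM) was above the lowest Con library (0.631 CPM), and the 2 primed groups overlapped. The log2 fold change was 2.71 ± 0.59 (SE) against CPT (edgeR adjusted p = 0.00181) and 0.88 ± 0.50 (SE) against Con (edgeR adjusted p = 0.258). Against CPT the value was 2.15 without CPT replicate 1, the library at 0, and 3.54 without CPT replicate 2, and the call was kept in both. BIK stood at 1.63, 1.24 and 0.583 CPM in Con, 0.935, 0.394 and 0.764 CPM in CPT, 2.51, 1.95 and 2.03 CPM in GTA+5-Aza and 1.69, 2.73 and 1.35 CPM in CPT+GTA+5-Aza, apart in both comparisons. Its log2 fold changes were 0.91 ± 0.44 (SE) and 1.46 ± 0.46 (SE) (edgeR adjusted p = 0.159 and 0.0291), and the second call was lost without CPT replicate 2 and without CPT+GTA+5-Aza replicate 2 (adjusted p from 0.023 to 0.177 over the 12 fits).

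The remaining BH3-only proteins, BCL2L11 (BIM), BID and BMF, had values below 0 in both comparisons and were not called. BMF had log2 fold changes of -0.090 and -1.47, the second with an unadjusted P of 0.0102 and called lower with the GC trend removed (-1.53, edgeR adjusted p = 0.0361). BID had -0.073 and -0.20, and BCL2L11 -0.12 and -0.051.

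Among the guardians, MCL1 rose without CPT, by less than each of the 9 pro-death members called. It stood at 199, 196 and 192 CPM in Con, 221, 226 and 220 CPM in GTA+5-Aza, 199, 205 and 212 CPM in CPT and 225, 218 and 218 CPM in CPT+GTA+5-Aza. All primed libraries were above all unprimed ones. The log2 fold changes were 0.19 ± 0.054 (SE) and 0.099 ± 0.055 (SE) (edgeR adjusted p = 0.0177 and 0.235).

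BCL2L1 and BCL2 did not pass with all libraries in the fit. An antisense lncRNA, ABALON, covers 41.34% of the exon bases of BCL2L1. Unlike the lncRNA over FADD, ABALON is not among the counted identifiers. Its reads could be taken for BCL2L1 where strand was not used. BCL2L1 stood at 90.7, 102 and 93.1 CPM in Con, 107, 107 and 115 CPM in GTA+5-Aza, 97.6, 109 and 83.8 CPM in CPT and 112, 107 and 108 CPM in CPT+GTA+5-Aza. Its log2 fold changes were 0.21 and 0.17 (edgeR adjusted p = 0.0706 and 0.15). The first was called without Con replicate 2, CPT replicate 2 or CPT replicate 3, scaled by library size only and with only its 2 groups in the fit (edgeR adjusted p from 0.0281 to 0.0491 in these 5, and adjusted p up to 0.266 in the other settings). The second was called without CPT replicate 2 (0.26, edgeR adjusted p = 0.0134). BCL2 stood at 2.73, 2.48 and 3.45 CPM in Con, 3.21, 2.65 and 2.2 CPM in GTA+5-Aza, 2.75, 3.94 and 4.04 CPM in CPT and 1.85, 1.48 and 4.22 CPM in CPT+GTA+5-Aza, overlapping in both comparisons, with log2 fold changes of -0.10 and -0.52 (95% intervals -0.78 to 0.57 and -1.19 to 0.16). The sign of the first turned without GTA+5-Aza replicate 3 (0.020) and without Con replicate 3 (0.043). The second was -1.10 and called lower without CPT+GTA+5-Aza replicate 3 (edgeR adjusted p = 0.0326). BCL2L2 (BCL-w) had -0.046 and -0.035.

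The inhibitor of apoptosis proteins were not called by edgeR in either comparison, with 1 of the 4 at an unadjusted P under 0.05 in each, beside 29.4% and 29.3% of all genes. XIAP, which inhibits caspases directly, had log2 fold changes of -0.043 and -0.032, and BIRC2 (cIAP1) had -0.0012 and 0.023. BIRC3 (cIAP2) had 0.25 and 0.063 and BIRC5 had -0.12 and -0.15. With the GC trend removed, BIRC3 was called higher without CPT (0.33, edgeR adjusted p = 0.000827) and BIRC5 lower in both comparisons (-0.15 and -0.18, edgeR adjusted p = 0.0249 and 0.0075).

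Downstream of the mitochondrion, APAF1 was called higher without CPT. CYCS was called lower only with CPT present, though its values were below 0 in both comparisons. APAF1 stood at 44, 39.9 and 49.7 CPM in Con and 57.4, 52.2 and 52.4 CPM in GTA+5-Aza, with 43.7, 43.8 and 46.9 CPM in CPT and 51.3, 47.3 and 46.5 CPM in CPT+GTA+5-Aza. Its log2 fold changes were 0.28 ± 0.090 (SE) and 0.11 ± 0.091 (SE) (edgeR adjusted p = 0.0323 and 0.463). CYCS stood at 312, 312 and 299 CPM in Con, 292, 288 and 261 CPM in GTA+5-Aza, 318, 336 and 286 CPM in CPT and 292, 275 and 264 CPM in CPT+GTA+5-Aza, apart without CPT and overlapping with it. Its log2 fold changes were -0.14 ± 0.062 (SE) and -0.18 ± 0.062 (SE) (edgeR adjusted p = 0.136 and 0.0499), and the call was lost in 9 of the 12 fits that left out 1 library and with the GC trend removed (-0.13, edgeR adjusted p = 0.123). DIABLO (SMAC), which releases caspases from XIAP, had -0.17 and -0.35, and the protease HTRA2 had -0.0049 and 0.038. Another gene on the same strand shares 31.49% of the exon bases of DIABLO, and LOXL3 on the other strand 27.49% of those of HTRA2.

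**Figure D3:**
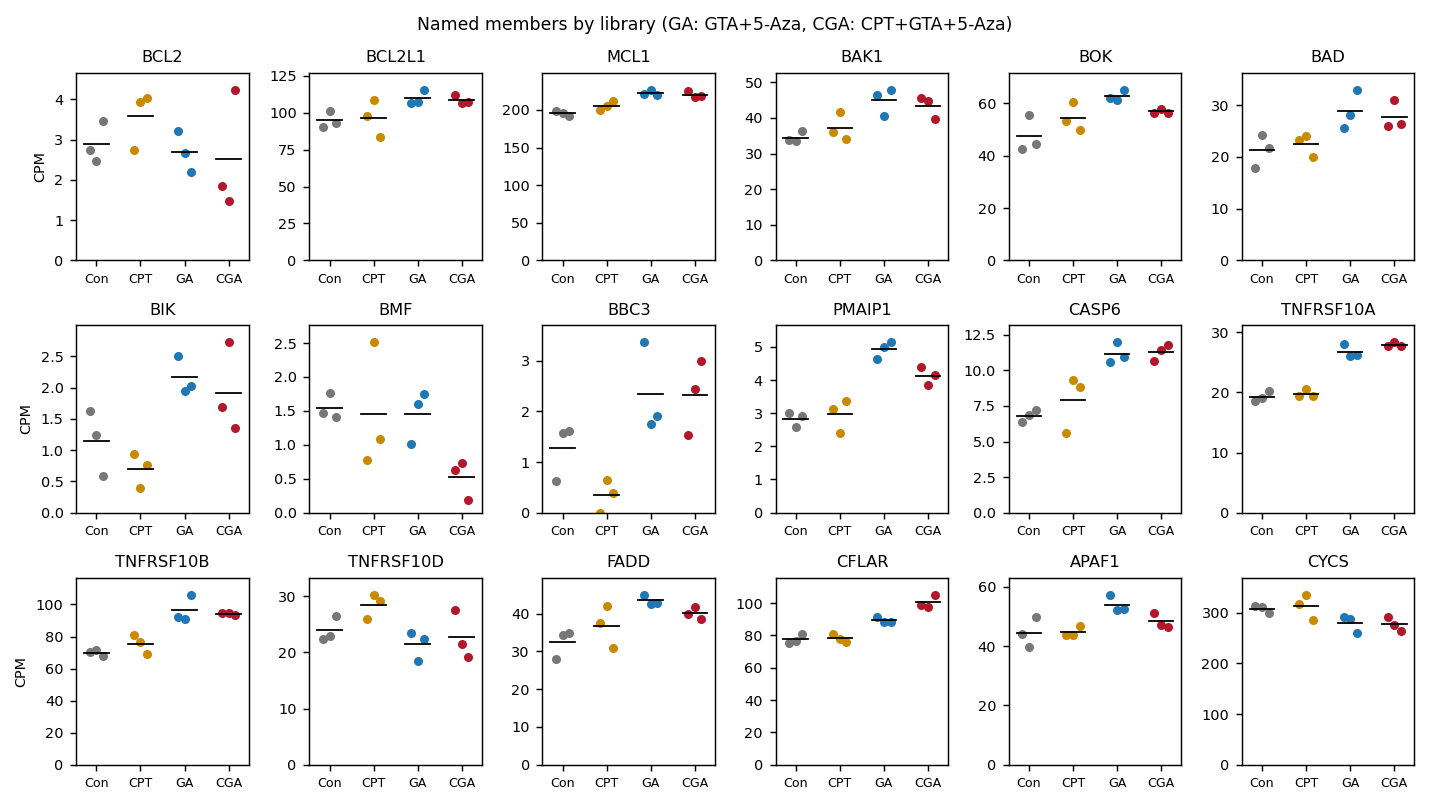
CPM of the named members in each library, 3 points and a mean bar per group, each axis starting at 0. TNFRSF10A, TNFRSF10B, CFLAR, CASP6, PMAIP1, BAD and MCL1 show no overlap between primed and unprimed libraries, and BBC3 has its lowest mean in CPT.

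The pro-death members moved by more than the anti-death ones without CPT, and by little more with it. Without CPT, the 26 pro-death members had a median log2 fold change of 0.35 and the 11 anti-death members one of -0.0012, a difference of 0.35, beside 0.0069 over all 17123 genes. In CPT+GTA+5-Aza against CPT the medians were 0.11 and 0.023, a difference of 0.082, and over all genes 0.0055. Within libraries, the median log2 CPM of pro-death less that of anti-death members, without scaling by length, was -1.94, -1.71 and -1.93 in Con, -1.85, -1.69 and -1.94 in CPT, -1.75, -1.69 and -1.57 in GTA+5-Aza and -1.86, -1.70 and -1.85 in CPT+GTA+5-Aza. The 4 groups overlapped on this measure.

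**Figure D4:**
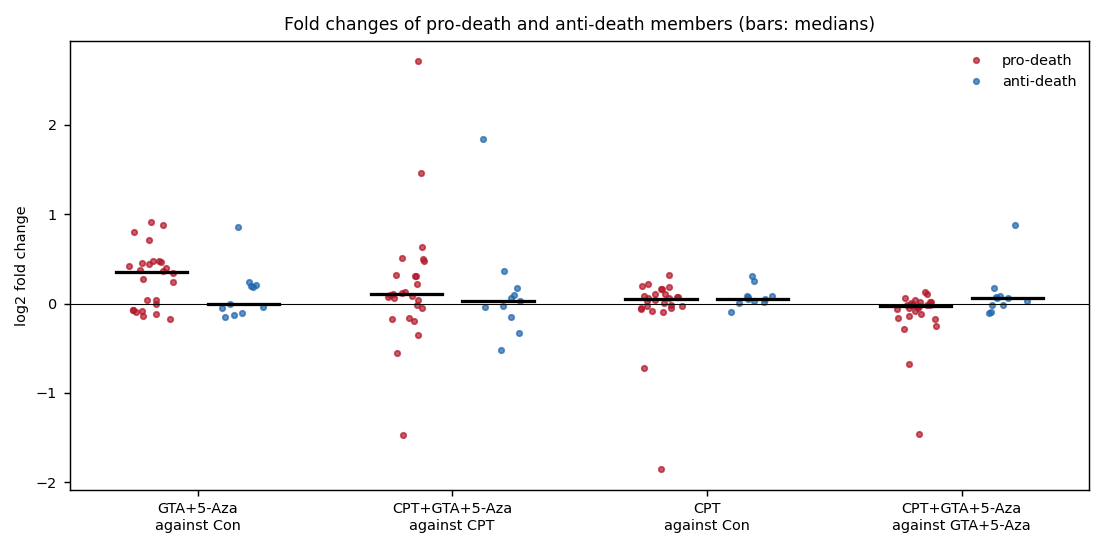
Log2 fold change of each pro-death (red) and anti-death (blue) member in the 4 comparisons, with medians as black bars. The medians are 0.35 and -0.0012 in GTA+5-Aza against Con and lie within 0.082 of each other in the comparison with CPT present.

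GC content moved with this difference. The trend with the GC content of transcripts, fitted in each library on 11585 genes, as log2 CPM at the 90th less that at the 10th percentile of GC, was -0.22, 0.021 and -0.184 in Con, -0.186, 0.129 and -0.291 in CPT, 0.118, -0.042 and 0.301 in GTA+5-Aza and 0.054, 0.19 and 0.109 in CPT+GTA+5-Aza. The trend was thus mostly higher in primed than in unprimed libraries, with some overlap. A response of GC-rich genes to priming cannot be told apart here from a technical difference between libraries, and removing the trend removes both. The median GC content was 49.7% for pro-death members, 45.1% for anti-death members and 49.0% for all genes tested. With each library's trend removed, the difference between the medians was 0.16 without CPT and -0.0080 with CPT. The members called were then 10 higher and 3 lower without CPT and 7 higher and 3 lower with it, where 9.05% of all genes were called higher and 10.7% lower in the first and 9.1% and 11.4% in the second. In the first comparison BOK and BAD lost their calls, BIRC3 was added among the higher, and BAX, TNFRSF1A and BIRC5 were the 3 lower. In the second CYCS lost its call, CASP4 was added among the higher, and TNFRSF1A, BIRC5 and BMF were the 3 lower.

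**Figure D5:**
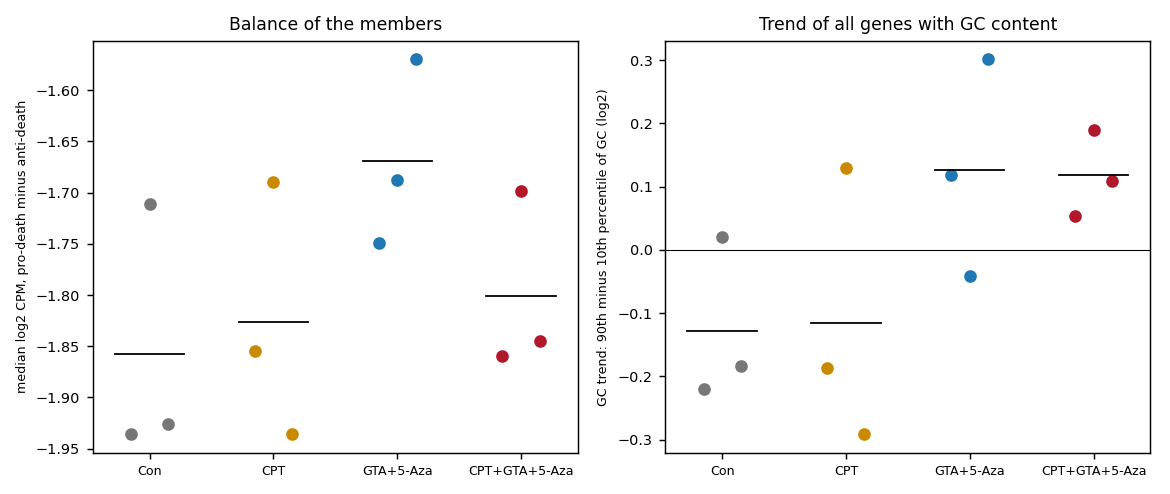
Left, median log2 CPM of pro-death less anti-death members in each library. Right, the trend of expression with GC content in the same libraries, with a mean bar per group. GTA+5-Aza replicate 3 is the highest in both panels, at -1.57 and 0.301.

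Over both CPT states, with 6 primed and 6 unprimed libraries, priming raised 17 members and lowered 4, where 16.8% of all genes were called higher and 14% lower (edgeR's quasi-likelihood test, a contrast chosen after seeing the data). Of the pro-death members 13 of 26 were higher and 2 lower, and of the anti-death members 4 of 11 were higher and 2 lower, with medians of 0.21 and 0.011. The members it added were BCL2L1 at a log2 fold change of 0.19, CASP4 at 0.55, CASP10 at 0.32 and TNFRSF10C at 1.35 among those higher, and TNFRSF1A at -0.13, TNFRSF10D at -0.24 and BIRC5 at -0.14 among those lower. The decoy receptors differed in sign, TNFRSF10C on 2 to 26 counts per library with its call lost in 9 of the 12 fits that left out 1 library, and TNFRSF10D with its call lost in 8. With the GC trend removed, 11 pro-death and 4 anti-death members were higher and 3 and 2 lower, beside 15.2% and 18% of all genes, and the pro-death less anti-death median was 0.059 in place of 0.20. BCL2L1 (0.084), TNFRSF10C (1.24), BOK (0.022), BAD (0.16), FADD (0.15) and CYCS (-0.11) lost their calls there, with edgeR adjusted p from 0.0513 for CYCS to 0.787 for BOK, while CASP8, BIRC2 and BIRC3 were added among the higher and BAX and BID among the lower.

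CPT changed 0 members beyond the adjusted threshold in either state. In CPT against Con, 0% of all genes were called by edgeR's adjusted p and 4.28% had an unadjusted P under 0.05, as did 2 members, and DESeq2 called 0 members and 4 genes in all. BBC3 had a log2 fold change of -1.86 ± 0.60 (SE) with an unadjusted P of 0.0048, on the counts given above, where CPT and Con overlapped. BOK had 0.20 (unadjusted P = 0.0463), and TNFRSF10D, at 22.3, 22.9 and 26.5 CPM in Con and 26, 30.3 and 29.2 CPM in CPT, had 0.25 (unadjusted P = 0.0599). The median log2 fold change was 0.048 for pro-death and 0.0525 for anti-death members, a difference of -0.0045.

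In CPT+GTA+5-Aza against GTA+5-Aza, 0% of all genes were called and 2.71% had an unadjusted P under 0.05, as did 2 members, and DESeq2 called 0 members and 1 gene in all. BMF, which is held on the cytoskeleton until stress frees it, had 28, 37 and 29 counts in Con, 14, 51 and 20 in CPT, 19, 32 and 31 in GTA+5-Aza and 12, 13 and 3 in CPT+GTA+5-Aza. The last group was below each of the others, and the log2 fold change against GTA+5-Aza was -1.46 ± 0.53 (SE) with an unadjusted P of 0.0109. CFLAR had 0.17 (unadjusted P = 0.0194) and APAF1 -0.16 (unadjusted P = 0.0915). The median was -0.024 for pro-death and 0.058 for anti-death members, a difference of -0.082 that was not tested. Values below 0 were found for 18 of 26 pro-death and 4 of 11 anti-death members. Of the pro-death members 7 lay wholly below GTA+5-Aza and 0 wholly above, beside 4.74% and 4.42% of all genes. Between replicates of a group, the pro-death less anti-death median had an SD of 0.11.

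The interaction, which tests whether CPT acts differently in primed and unprimed cells, called 0% of all genes, while 2.63% had an unadjusted P under 0.05. Of the members 0 were called, by DESeq2 as well, and 2 had an unadjusted P under 0.05. BBC3 had a log2 difference of 1.84 ± 0.78 (SE) with an unadjusted P of 0.0256, and BOK -0.34 ± 0.13 (SE) with an unadjusted P of 0.0173. The next was FADD at -0.30 with an unadjusted P of 0.0618. Members called in only 1 of the priming comparisons were therefore not shown to differ between them.

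Other genes of the pathway, from a written list of 49 of which 35 were tested, went both ways. Without CPT, priming raised 3 and lowered 3 of the 35, beside 9.95% and 7.53% of all genes, and the median over the list was -0.0032. The TWEAK receptor TNFRSF12A (0.63) and SEPTIN4 (2.03) were among the higher, and the kinase RIPK1 (-0.34) and FAIM (-0.32) among the lower (edgeR adjusted p = 0.00208, 0.0424, 0.00283 and 0.0442). In CPT+GTA+5-Aza against CPT 3 were higher and 4 lower, beside 9.57% and 7.39%, with TNFRSF12A (0.40) and RIPK1 (-0.36) again among them. In both CPT comparisons and the interaction 0 were called by edgeR's adjusted p or by DESeq2, and 2, 0 and 0 had an unadjusted P under 0.05.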

How the data were processed

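The 12 MiaPaca2 libraries were read as raw counts per gene, as the authors deposited them. According to the submitters' processing notes, trimming was by Trim Galore, alignment to GRCh38 by HISAT2 2.2.1 and counting by HTSeq. The annotation release and strand setting are not given in the sources used here. Identifiers in GENCODE v44 (52181 of 63677) held 99.0469% of the counts, and 0 rows named no gene. Groups came from the labels. The study's methods call the samples of each experiment independent but do not say whether these were separate cultures, so p-values measure the spread between these samples only.

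The 38 members and the lists were chosen with earlier results of these data known. The tests ran in edgeR 4.0.16 under R 4.3.3 (filterByExpr, TMM, glmQLFit and glmQLFTest on all 12 libraries in 1 fit, Benjamini-Hochberg over 17123 genes, adjusted p under 0.05), and with DESeq2 1.42.0 as an alternative. CPM used TMM-scaled library sizes. Per-library values are given for members called in either priming comparison, for the 3 with the smallest P in each CPT comparison and the interaction, and for BCL2, BCL2L1 and MCL1. Of the list of other pathway genes, up to 5 called in GTA+5-Aza against Con were to be named. Some genes and 1 further gene list are not reported here. Alternatives were DESeq2, its size factors, library size only, other filters on low counts, the likelihood ratio test, only the 2 groups compared, a replicate block, the thresholds of the study and leaving out each library. The averaged contrast, upper quartile scaling and the removal of GC trends by loess were chosen after seeing the data. Methods were tested on simulated data. Total counts of 16162490 to 21224665 set the precision, and a count of 0 allows up to 3 counts, for counting error only.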

Additional observations from a re-analysis of the deposited data

Results flagged for a closer look

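The effect of CPT differed between primed and unprimed cells for 2 members by the unadjusted test of the interaction, and neither passed the correction over all genes (edgeR's quasi-likelihood test, adjusted p = 1 for both). For BBC3 the log2 difference was 1.84, with CPT log2 fold changes of -1.86 in unprimed and -0.017 in primed cells. For BOK the log2 difference was -0.34, with CPT log2 fold changes of 0.20 in unprimed and -0.14 in primed cells. Without 1 library the difference ran from 1.28 to 2.67 for BBC3 and from -0.47 to -0.26 for BOK.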

How the results depend on the processing

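The study's thresholds (fold change above 1.5, unadjusted P under 0.05) gave 3 members in GTA+5-Aza against Con, 1 in CPT against Con, 1 in CPT+GTA+5-Aza against GTA+5-Aza, 1 in the interaction and 6 for priming averaged over CPT, against 11, 0, 0, 0 and 21 by adjusted p. Without 1 library the counts ran from 6 (without GTA+5-Aza replicate 3) to 13 in GTA+5-Aza against Con and from 4 (without CPT+GTA+5-Aza replicate 2) to 9 in CPT+GTA+5-Aza against CPT. With the GC trend removed, the pro-death less anti-death median was 0.16 in GTA+5-Aza against Con (0.35 before) and 0.059 averaged over CPT (0.20 before), and BOK turned to -0.14 in CPT+GTA+5-Aza against CPT. Without 1 library BOK ran there from -0.0051 (without CPT replicate 3) to 0.13 (without CPT replicate 2). BCL2 in GTA+5-Aza against Con ran from -0.25 without GTA+5-Aza replicate 1 to 0.020 without GTA+5-Aza replicate 3 and 0.043 without Con replicate 3. Same-numbered replicates correlated from -0.564 to 0.605 and different-numbered ones from -0.561 to 0.522, so the numbers gave no sign of pairing. With the replicate number as a block, 10 members were called in GTA+5-Aza against Con, where CFLAR was lost, 7 in CPT+GTA+5-Aza against CPT and 20 averaged over CPT. The scarce members (BBC3, BIK, BMF, FAS, TNFRSF10C) are limited by their counts.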
